A study of Mus musculus with 8 samples.

Results

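Complement is a cascade of plasma and tissue proteins that marks damaged cells and microbes for removal. C1q, built from the A, B and C chains, starts the classical pathway by recognising its targets, C2 is part of the enzyme that carries the cascade on, and fragments released along the way act on receptors such as C3ar1. Serping1 (C1 inhibitor) and Clu (clusterin) restrain the cascade at its first and last steps. Macrophages make most of the C1q in tissues, whereas the liver makes most of the complement proteins of plasma.

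The complement components and regulators described here were the genes C1qa, C1qb, C1qc, C2, C3, C4b, C3ar1, Serping1 and Clu, taken through probe sets whose platform annotation names exactly 1 gene symbol. That gave 13 probe sets of 7 genes, out of 12393 genes named in this way and 22626 probe sets in all, controls left out. C3 and C4b had no such probe set and are not analysed here. All 13 probe sets were bright enough to be tested, so no member was lost to the filter.

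The groups were dystrophic mice of genotype dy/dy and the normal mice that the labels name as their controls, all aged 8 weeks. The dy/dy genotype is a model of muscular dystrophy with too little of the laminin α2 chain. RNA came from the diaphragm, and each Affymetrix array held muscle pooled from 3 mice, with 4 arrays and 12 mice in each group. The labels give neither the strain background, the sex nor the relation of controls to dy/dy mice. Because each array holds a pool, differences among the mice within it cannot be seen. Values are MAS5 signals, a unit of probe set brightness, rescaled so that all arrays have the same trimmed mean. Levels of different probe sets cannot be set against each other, because each has its own probes.

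Lama2, which encodes laminin α2, had signals of 333, 240, 275 and 232 in the dystrophic pools and of 793, 982, 859 and 749 in the normal pools. It fell, by limma's log2 estimate of -1.60 (SE 0.15, adjusted p = 8.91e-04). Skeletal muscle was the tissue measured: the 5 muscle markers Ckm, Acta1, Myh4, Tnnt3 and Myh1 summed to between 78923 and 94423 in dystrophic and between 81326 and 118983 in normal pools. Dystrophic replicate 3 stood apart for liver transcripts. The summed signal of 18 liver markers was 87923 in that pool, against 6957 to 11611 in the other dystrophic pools and 4214 to 7621 in the normal pools. Values without that pool are given beside those of the members and of most other complement genes named. The arrays were also grouped into 3 sets, a number chosen and not tested, by the signal of their spike-in RNAs. Each set held pools of both groups: replicates 2 and 4 in set 1, replicate 3 in set 2 and replicate 1 in set 3.

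RefSeq promoter windows, from 250 bases before to 50 bases after the start of transcription (build GRCm38.p6), were available for 3 of the 7 genes, C1qb, C1qc and C3ar1. They are shown because the C1q and C3ar1 probe sets had the largest differences among the members. C1qb, C1qc and C1qa are direct neighbours among the coding genes of chromosome 4. Capitals mark matches to the core AGGAAG of PU.1, a transcription factor of macrophages, or to the AP-1 motif TGANTCA, on either strand, none of which overlap. The C1qb window is chr4:136886151-136886450 (minus strand), the C1qc window chr4:136892865-136893164 (minus strand) and the C3ar1 window chr6:122856108-122856407 (minus strand).
C1qb: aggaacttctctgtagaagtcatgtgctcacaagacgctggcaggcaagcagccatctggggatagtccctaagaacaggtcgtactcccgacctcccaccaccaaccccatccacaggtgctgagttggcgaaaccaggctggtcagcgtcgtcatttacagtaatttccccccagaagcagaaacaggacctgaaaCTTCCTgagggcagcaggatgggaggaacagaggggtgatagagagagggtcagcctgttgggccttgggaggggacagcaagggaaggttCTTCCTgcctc
C1qc: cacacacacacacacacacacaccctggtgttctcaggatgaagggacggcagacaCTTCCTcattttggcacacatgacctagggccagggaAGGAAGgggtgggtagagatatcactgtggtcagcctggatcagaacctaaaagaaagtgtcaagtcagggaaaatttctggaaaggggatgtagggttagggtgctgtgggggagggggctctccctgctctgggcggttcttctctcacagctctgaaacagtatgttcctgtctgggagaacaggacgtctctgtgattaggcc
C3ar1: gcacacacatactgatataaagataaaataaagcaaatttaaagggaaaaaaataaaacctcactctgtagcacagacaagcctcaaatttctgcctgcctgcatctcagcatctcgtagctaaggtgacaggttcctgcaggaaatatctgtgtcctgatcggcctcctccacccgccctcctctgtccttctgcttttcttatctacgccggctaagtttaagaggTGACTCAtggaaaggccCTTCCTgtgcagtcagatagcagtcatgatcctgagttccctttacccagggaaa

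AGGAAG, printed as CTTCCT where it lies on the other strand, occurred 2 times in the C1qb window. The first printed letters of these matches lay 52 bases before and 39 bases after the start of transcription. By the same measure, AGGAAG occurred 2 times in the C1qc window, 194 and 157 bases before the start. It occurred 1 time in the C3ar1 window, with its first printed letter 5 bases before the start. Of all 32851 promoter windows of this length, 35.4% hold this motif. The AP-1 motif occurred 1 time, 22 bases before the C3ar1 start, and 7.81% of all windows hold it. The gamma-activated site TTCNNNGAA, which STAT factors bind, was in 8.30% of all windows, and these letters were in none of the 3 shown. These matches describe the sequence only.

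No complement probe set passed the test. Limma, on log2(signal + 16) with p-values adjusted by Benjamini-Hochberg across 13576 tested probe sets, called 0 of 13 at an adjusted p under 0.05, against 0.494% of all probe sets tested (0.457% higher and 0.0368% lower). At an unadjusted p under 0.05 it listed 5 of 13 as higher in dystrophic diaphragm, against 5.6% of all probe sets, and 0 as lower, against 4.12%. In 4 of 13, 1 each of C1qa and C1qb and both of C3ar1, every dystrophic pool lay above every normal pool, against 3.87% of all probe sets. Both counts, 5 and 4, were the same without dystrophic replicate 3, where the shares among all probe sets were 4.40% and 4.84%. The median log2 difference of the 13 was 0.47, against -0.01 over all probe sets tested, and 11 of 13 lay above 0, against 47.7% of all. Without the 4 Clu probe sets the median was 0.64. The differences ran from -0.26 for C2 to 1.03 for a C1qb probe set. The number above 0 did change without dystrophic replicate 3. It was then 8 of 13, against 6512 of all 13576, with all 4 Clu probe sets below 0, and the median of the 13 was 0.52. In whole muscle, a change in the number of cells of a type and a change in RNA per cell cannot be told apart.

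**Figure D1:**
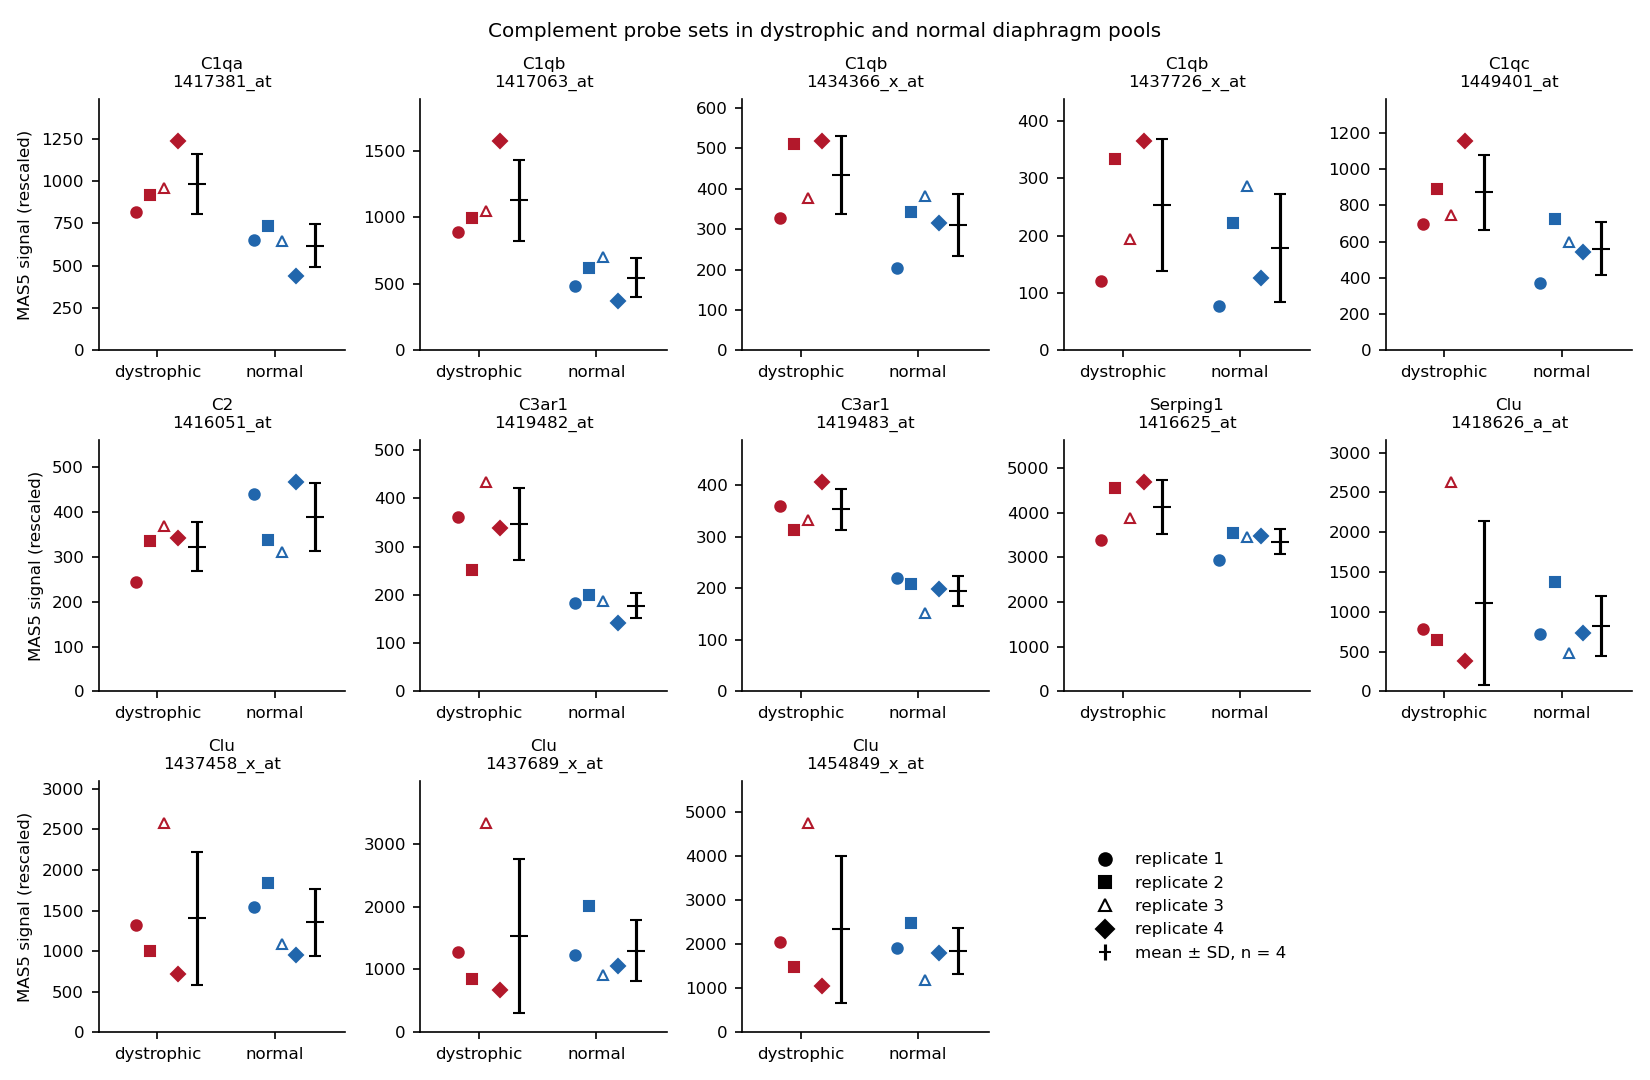
Rescaled MAS5 signal (linear axis from 0, arbitrary units) of each of the 13 complement probe sets in the 4 dystrophic and 4 normal pools, with symbols for the replicates and bars for mean ± SD. The groups do not overlap for C1qa, C1qb 1417063_at and both C3ar1 probe sets, and dystrophic replicate 3 (open red triangle) is the highest pool in all 4 Clu panels.

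C1qb, the B chain, had the largest difference of the members. Its probe set 1417063_at had signals of 890.0, 996, 1048 and 1574 in the dystrophic pools, against 483, 621, 701 and 374 in the normal pools. Every dystrophic pool was above every normal pool, with dystrophic replicate 4 well above the other dystrophic pools. The means were 1127 ± 305 in dystrophic and 545 ± 145 in normal pools (SD, n = 4 each), 2.07-fold apart. The log2 difference was 1.03 (SE 0.22, 95% interval 0.55 to 1.51, adjusted p = 0.0777), so it did not pass. Without dystrophic replicate 3 it was 1.05, and within spike-in sets 1, 2 and 3 it was 1.35, 0.57 and 0.86. With 1 pool left out it ran from 0.86 to 1.16.

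The other C1qb probe sets, 1434366_x_at and 1437726_x_at, carry the suffix x, which Affymetrix gives to probe sets whose probes may also match other transcripts. The first had 328, 511, 378 and 518 in dystrophic pools, against 204, 343, 382 and 316 in normal pools, which differed by 0.47 on the log2 scale (SE 0.21, adjusted p = 0.514). The second had 120.4, 333, 194 and 365 in dystrophic pools, against 77.7, 222, 286 and 126 in normal pools, which differed by 0.50 on that scale (SE 0.40, adjusted p = 0.75). Within spike-in set 2 these were at -0.02 and -0.52, while in sets 1 and 3 both were above 0. Without dystrophic replicate 3 they were at 0.52 and 0.58. In both, the groups overlapped and dystrophic replicate 4 was again the highest pool. Across the 8 pools the 3 C1qb probe sets had Pearson correlations of 0.68 to 0.93 with each other, given as a description of pools that share group differences.

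C1qa, the A chain, had signals of 818, 916, 957 and 1237 in dystrophic pools, against 653, 732, 647 and 438 in normal pools. The groups did not overlap, but dystrophic replicate 1 and normal replicate 2 were close. On the log2 scale the groups differed by 0.66 (SE 0.18, 95% interval 0.27 to 1.06, limma adjusted p = 0.182), and 0.67 without dystrophic replicate 3. Within the spike-in sets C1qa was at 0.89, 0.55 and 0.32. Its lowest pool was again normal replicate 4, and with 1 pool left out the difference ran from 0.51 to 0.75. C1qc, the C chain, had signals of 696, 890.5, 744 and 1155 in dystrophic pools, against 373, 726, 595 and 544 in normal pools. Here dystrophic replicate 1 lay below normal replicate 2, and the rest of the dystrophic pools lay above all normal pools. The log2 difference was 0.64 (SE 0.21, 95% interval 0.17 to 1.1, limma adjusted p = 0.314), and 0.70 without dystrophic replicate 3. Within the sets it was at 0.68, 0.32 and 0.87. The 3 chains are needed together for the C1q protein. All 5 of their probe sets had log2 differences above 0, and dystrophic replicate 4 was the highest pool in all 5.

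C3ar1, the receptor for the C3a fragment, had the smallest adjusted p-values. Probe set 1419483_at had signals of 359, 313, 331 and 406 in dystrophic pools, against 219, 207, 152 and 198 in normal pools. The lowest dystrophic pool stood well above the highest normal pool. In log2 terms the difference came to 0.82 (SE 0.16, 95% interval 0.47 to 1.16, limma adjusted p = 0.0552), and 0.84 without dystrophic replicate 3. It passed in 3 of 20 alternative fits, namely robust hyperparameters (adjusted p = 0.0495), array weights (adjusted p = 0.0300) and the spike-in set as a term (adjusted p = 0.0400), and its adjusted p ranged from 0.0300 to 0.227 over all 20.

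The second C3ar1 probe set, 1419482_at, had signals of 361, 252, 434 and 338 in dystrophic pools, against 184, 199, 187 and 142 in normal pools. Dystrophic replicate 3 was the highest and dystrophic replicate 2 the lowest of the dystrophic pools, and none reached down to the normal pools. The log2 difference was 0.89 (SE 0.19, limma adjusted p = 0.0743), and 0.77 without dystrophic replicate 3. Within the spike-in sets the differences were 0.77, 1.05 and 0.68 for 1419483_at and 0.74, 1.15 and 0.92 for 1419482_at, all above 0.

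Macrophage markers were measured in the same pools. The summed signal of 20 macrophage markers, a list that holds no complement gene, was 13319, 13521, 14244 and 15133 in dystrophic pools, against 7876, 10197, 7955 and 8068 in normal pools. Of the 17 that were tested 16 had differences above 0 (median 0.75 on the log2 scale), against 47.7% of all probe sets. Of the 17, 5 rose, against 0.457% of all: Mpeg1 by 2.03, Lgals3 by 1.56, Gpnmb by 1.53, Ctss by 1.33 and Cd68 by 0.96 on that scale. Every dystrophic pool was above every normal pool for this sum. Among the other markers of the list, Mrc1 was at 0.19 (adjusted p = 0.798) and Cd163 at -0.35 (adjusted p = 0.726). Adgre1 was at 0.75 (limma adjusted p = 0.139) and Csf1r at 0.51 (limma adjusted p = 0.0815). None of these passed the threshold, and Cd163 was the only tested marker below 0. The part of macrophages in the C1q and C3ar1 differences was not tested.

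**Figure D2:**
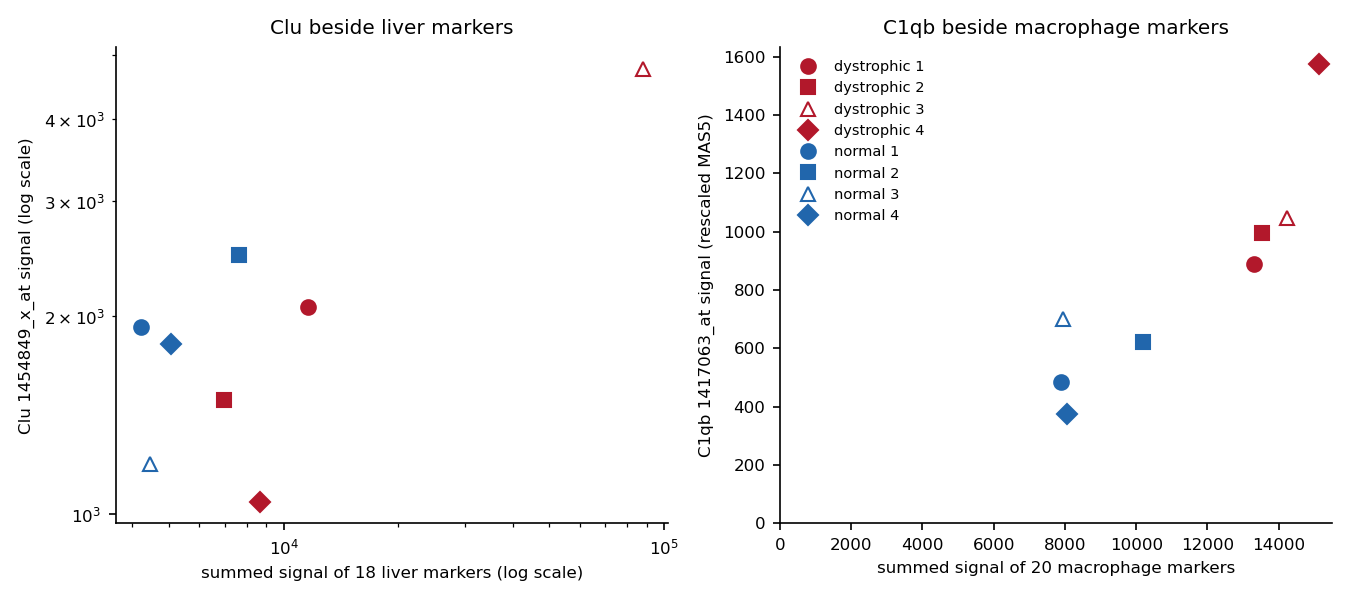
Left, signal of Clu 1454849_x_at against the summed signal of 18 liver markers, both on log axes. Right, signal of C1qb 1417063_at against the summed signal of 20 macrophage markers on linear axes, with 1 symbol per pool in both panels. Dystrophic replicate 3 lies alone at 87923 and 4764 on the left, and the 4 dystrophic pools lie above and to the right of the 4 normal pools on the right.

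C2, which joins C4 in the enzyme that cleaves C3, was the member with the lowest difference. It had signals of 244, 335, 369 and 342 in dystrophic pools, against 441, 338, 311 and 468 in normal pools. The groups overlapped, with dystrophic replicate 1 the lowest pool and normal replicates 1 and 4 the highest. On the log2 scale the groups differed by -0.26 (SE 0.18, 95% interval -0.65 to 0.14, limma adjusted p = 0.707), and -0.32 without dystrophic replicate 3. It was called in none of the 21 alternative fits. Within the spike-in sets it was at -0.22, 0.24 and -0.81. Cfb, the counterpart of C2 in the alternative pathway and its neighbour on chromosome 17, had 186, 232, 457 and 260 in dystrophic pools, against 181, 147, 180.4 and 255 in normal pools. Its log2 difference was 0.48 (SE 0.26, adjusted p = 0.583), and 0.24 without dystrophic replicate 3, the pool in which it was highest.

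Serping1, the inhibitor of C1r and C1s, was among the brightest probe sets of the array, at the 96.5th percentile of mean signal. It had signals of 3383, 4548, 3878 and 4688 in dystrophic pools, against 2943, 3541, 3449 and 3478 in normal pools. Of the dystrophic pools only replicate 1 lay within the range of the normal pools. The log2 difference was 0.29 (SE 0.14, 95% interval -0.01 to 0.59, limma adjusted p = 0.526), and 0.31 without dystrophic replicate 3. Within the spike-in sets it was at 0.39, 0.17 and 0.20. In the same pools the 10 fibroblast markers summed to between 42995 and 54989 in dystrophic and between 29730 and 36890 in normal pools, with 9 of 10 above 0, against 47.7% of all probe sets. Lum, Col1a2 and Mfap5 were called as higher, against 0.457% of all. Their part in the Serping1 values was not tested.

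Clu, a secreted chaperone that binds the terminal complement complex, was set apart by a single pool. Its brightest probe set, 1454849_x_at, had signals of 2065, 1491, 4764 and 1044 in dystrophic pools, against 1926, 2476, 1190.5 and 1811 in normal pools. Dystrophic replicate 3 was far above every other pool, and dystrophic replicate 4 was the lowest of all 8. In log2 terms the difference came to 0.14 (SE 0.39, 95% interval -0.70 to 0.99, limma adjusted p = 0.948), and -0.28 without dystrophic replicate 3 (adjusted p = 0.882).

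The other Clu probe sets gave the same order of extremes. 1418626_a_at had 783, 647, 2634 and 381 in dystrophic pools, against 717, 1370, 478 and 728 in normal pools. 1437689_x_at had 1281, 844, 3331 and 674 in dystrophic pools, against 1223, 2004, 919 and 1059 in normal pools. 1437458_x_at had 1327, 997, 2581 and 720 in dystrophic pools, against 1546, 1841, 1089 and 947 in normal pools. In each, dystrophic replicate 3 was the highest and dystrophic replicate 4 the lowest of the 8 pools. Their log2 differences were 0.14, 0.01 and -0.06 in that order, with limma adjusted p from 0.957 to 0.998, and -0.39, -0.46 and -0.41 without dystrophic replicate 3. The 95% intervals were wide, reaching from -0.92 to 1.21 for the first, so these pools leave both directions within the error. Within the spike-in sets 1454849_x_at was at -0.76, 1.99 and 0.10, with dystrophic replicate 3 in set 2.

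The 4 Clu probe sets correlated with each other at 0.92 to 0.98 across the 8 pools, and with the 5 C1q probe sets at -0.43 to 0.00. Both are descriptions, with no test. All 4 Clu probe sets, but only 1 of the 9 of the other members, were highest in dystrophic replicate 3, against 12.1% of all probe sets tested. All 18 liver markers on the array were also highest there, Alb at 18039 against 905 to 3245 in the other dystrophic pools and 521 to 1347 in the normal pools. The part of liver RNA in the Clu values was not tested. Outside that pool, dystrophic replicate 1 had the second highest liver sum, at 11611, and normal replicate 2 had the second highest Clu signal. Normal replicate 2 also had the highest liver sum of the normal pools, at 7621.

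**Figure D3:**
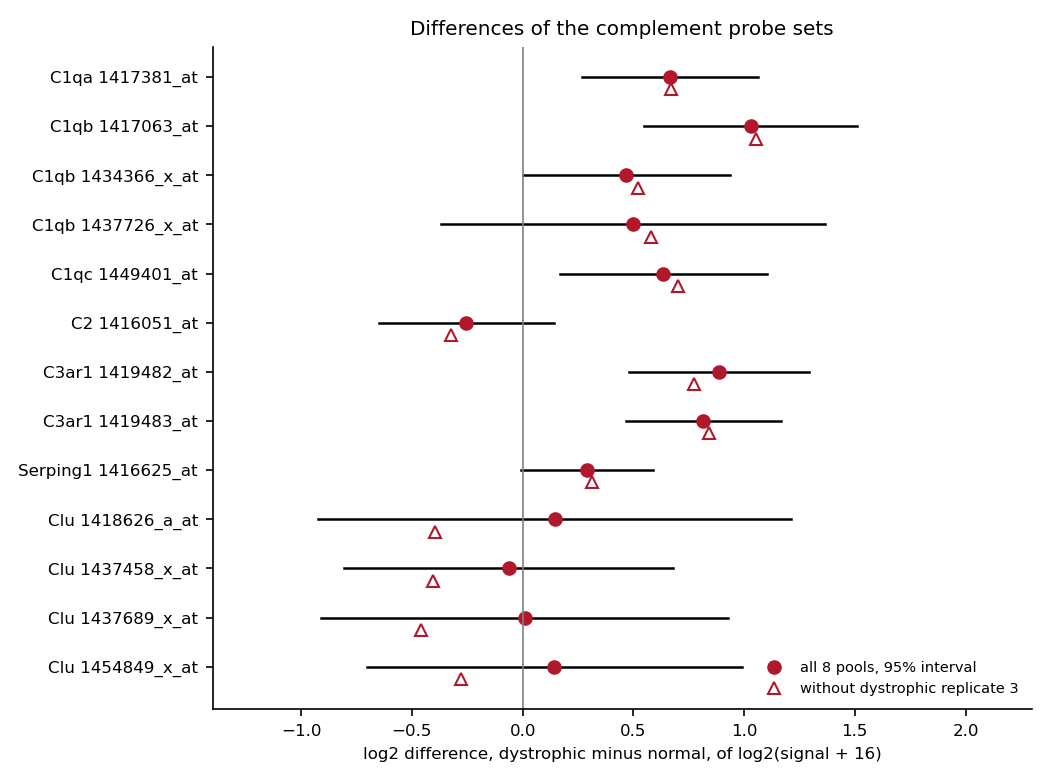
Log2 difference, dystrophic minus normal, of log2(signal + 16) for each complement probe set, with filled points and 95% intervals for all 8 pools and open triangles for the fit without dystrophic replicate 3. The triangles stay near the points for C1q, C3ar1 and Serping1, and lie below 0 for all 4 Clu probe sets.

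A wider list of 48 complement genes, with no member in it, had 35 genes on the array and 20 that could be tested, each through its brightest probe set. Limma called 1 as higher, against 0.457% of all probe sets, and 0 as lower, against 0.0368%, and 19 did not pass. At an unadjusted p under 0.05 there were 4 higher, against 5.6% of all, and 0 lower, against 4.12%. The median log2 difference was 0.23, against -0.01 over all probe sets, and 0.01 over the 17 that were tested without dystrophic replicate 3, where limma called 0 and 2 were higher at an unadjusted p under 0.05, against 4.40% of all. The gene called was Lrp1, an endocytic receptor that binds calreticulin. It had 1493, 1660, 1557 and 1564 in dystrophic pools, against 980.3, 1134, 889 and 818 in normal pools, which differed by 0.72 on the log2 scale (SE 0.13, adjusted p = 0.0361). It rose in all 4 dystrophic pools relative to all normal pools. The call was kept in 11 of 21 alternative fits, and among the 8 that leave out a single pool only without normal replicate 2, with adjusted p from 0.0347 to 0.148. Without dystrophic replicate 3 the difference was 0.72 (limma adjusted p = 0.115).

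None of the receptors and early proteases other than Lrp1 passed. Vsig4, a macrophage receptor for C3 fragments, had 156, 134, 222 and 137 in dystrophic pools, against 132, 107, 96.6 and 82.9 in normal pools. The lowest dystrophic pool was just above the highest normal pool, a pattern of 3.87% of all probe sets. It was at 0.55 (SE 0.21, limma adjusted p = 0.428), and 0.41 without dystrophic replicate 3, where it was too dim to be tested. C5ar1, the receptor for C5a, was at 0.55 (SE 0.22, adjusted p = 0.446), and Itgb2, a chain of complement receptors 3 and 4, at 0.34 (SE 0.17, adjusted p = 0.538). C1ra and C1s1, the proteases that C1q activates and Serping1 inhibits, were at 0.45 (SE 0.21, adjusted p = 0.513) and 0.26 (SE 0.15, adjusted p = 0.639). Without dystrophic replicate 3 the values were 0.57 for C5ar1, 0.34 for Itgb2, 0.45 for C1ra and 0.34 for C1s1.

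Regulators on the cell surface gave mixed values. Cd59a, which blocks the membrane attack complex on the body's own cells, had 768, 616, 659 and 667 in dystrophic pools, against 850.1, 810.2, 798 and 792 in normal pools. Every dystrophic pool was below every normal pool, a pattern that 2.53% of all probe sets share. The log2 difference was -0.26 (SE 0.12, limma adjusted p = 0.517), so it did not pass, and a second tested probe set was at -0.20 (adjusted p = 0.776). Cr1l, which limits C3 deposition in rodents, was at -0.28 (SE 0.21, adjusted p = 0.743), while Cd46 was at 0.20 (SE 0.22, adjusted p = 0.84). Without dystrophic replicate 3 the values were -0.25 for Cd59a, -0.31 for Cr1l and 0.19 for Cd46. The bright genes C1qbp, at -0.08, and the chaperone Calr, at -0.15, were not called either.

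Genes of the terminal pathway and plasma regulators in the wider list were too dim to be tested or were highest in dystrophic replicate 3. C8g, a subunit of the membrane attack complex, had 95.4, 114, 561 and 118 in dystrophic pools, against 123, 111, 168 and 65.6 in normal pools. It was at 0.52 (SE 0.47, limma adjusted p = 0.785), and -0.03 without that pool, where it was too dim to be tested. C9, which forms the pore, had 147, 154, 376 and 74.5 in dystrophic pools, against 253, 222, 215 and 95.8 in normal pools. Its log2 difference was -0.19 (SE 0.41, limma adjusted p = 0.93), and -0.57 without dystrophic replicate 3. Cfi, the protease that inactivates C3b, had 270.1, 178, 1117 and 177 in dystrophic pools, against 302, 224, 231 and 194 in normal pools. Vtn, which binds the terminal complex as Clu does, had 1073, 843, 3089 and 956 in dystrophic pools, against 1224, 836, 1098 and 718 in normal pools. Both were highest in dystrophic replicate 3 and lay at 0.40 and 0.43 with it, but at -0.19 and 0.01 without it. Of the 20 tested genes 8 were highest in dystrophic replicate 3, against 12.1% of all probe sets tested. Of all 35 genes on the array, dim ones included, 15 were highest there, and no share was computed for dim probe sets.

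**Figure D4:**
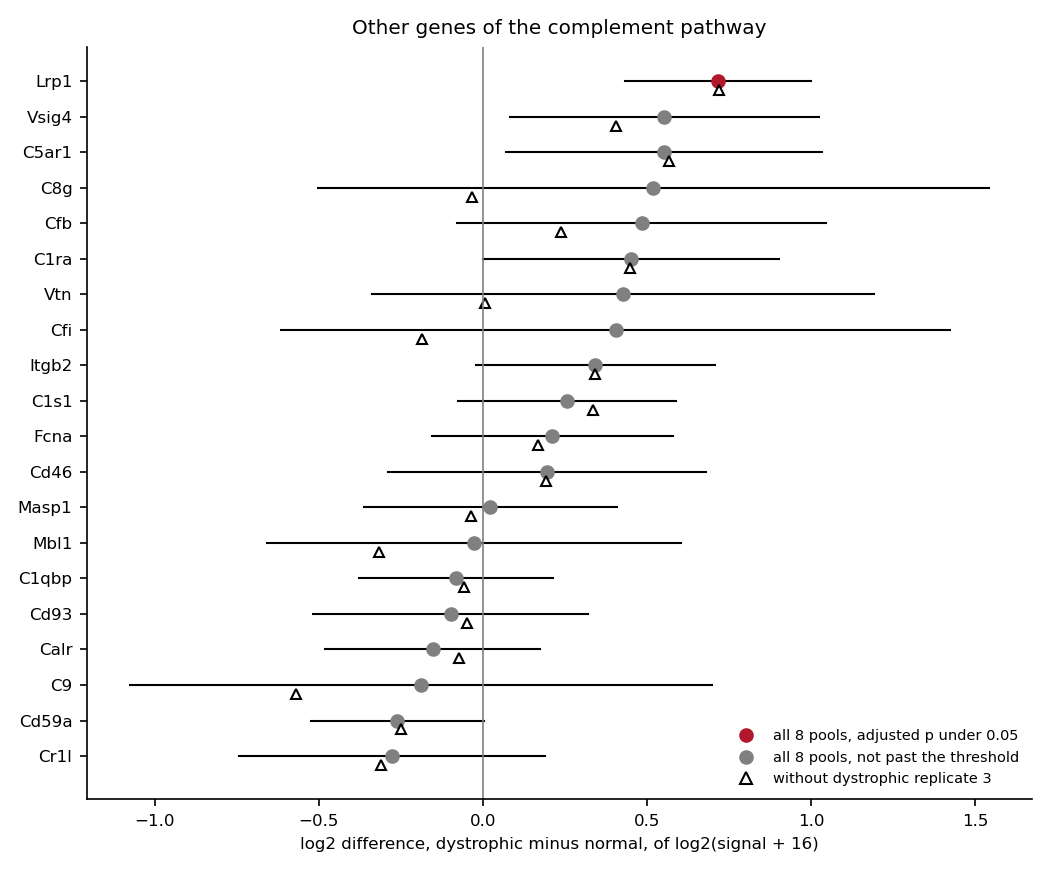
Log2 difference, dystrophic minus normal, of log2(signal + 16) for the 20 tested genes of the wider complement list, with 95% intervals over all 8 pools and open triangles for the value without dystrophic replicate 3. Lrp1, at 0.72, is the gene past the threshold, and C8g, Cfi and Vtn move to near or below 0 without that pool.

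The genes with the pattern most like C1qb over the 8 pools, by Pearson correlation of log2 values among 8214 other tested genes, were Wwp2 (0.98), Tgfbr1 (0.98), C1qa (0.96), Fcer1g (0.96) and Cyba (0.96). Cyba was the 1 of these 5 that limma called, at 1.08 on the log2 scale (SE 0.15, adjusted p = 0.00883). The genes most like Clu were Copg1 (0.94), Plekha5 (0.94), Pigr (0.93), H2-D1 (0.91) and Adgre5 (0.91), and none of these was called, the highest log2 difference being 0.64 for Pigr. Both lists are descriptions over 8 pools, with no test. The Clu list may rest largely on dystrophic replicate 3, where Clu was at 4764 against 1044 to 2476 in the other pools. It was not computed without that pool.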

How the data were processed

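The authors deposited 1 table of signal intensity per probe set on a linear scale, which comes from MAS5, per the submitters' processing notes. Its version is not given in the sources used, nor are detection calls. It holds 22690 probe sets, 64 of them Affymetrix controls. The 2% trimmed mean was 500.2 on 7 arrays but 400.2 on normal replicate 4, so all arrays were rescaled to the mean, 487.7, and array medians then ran from 172 to 207. The groups were then fitted in limma 3.58.1 (R 4.3.3) on log2(signal + 16), with an intensity trend. A filter removed the dimmest 40% of probe sets, ranked by mean log2 value, and Benjamini-Hochberg adjustment ran over the 13576 that remained, at a threshold of 0.05. The offset makes changes of dim probe sets look smaller. Gene symbols came from the platform annotation (20380 probe sets with 1 symbol, 691 with several, 1555 with none) and were updated by Entrez identifier (20351 matched). Tables and figures were made with Python 3.11.15 and matplotlib 3.10.9.

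The members and gene lists were chosen with earlier results of these data known. The genes named from the wider list were those called, the 8 with the smallest p, the 4 brightest and tested terminal pathway genes. Cr1l, Cd46, Cfi, Mrc1, Cd163, Adgre1, Csf1r and Masp1 were added after their values were seen. Likeness was also planned for C3, which has no probe set here. The fit was checked on simulated data. Replicate numbers are shared by the groups, and same-numbered pools fell in the same spike-in set. Deviations of same-numbered pools correlated at 0.48, -0.05, 0.14 and 0.13, against -0.25 to 0.16 for pools of unlike number. These values do not settle whether the pools are pairs. The main fit did not pair them, and a fit with the replicate number as a block is given below. The number of arrays limits the precision. Each p-value sets a group difference against the spread between pools, which limma adjusts by a trend over all tested probe sets. The spread between mice within a pool is not covered.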

Additional observations from a re-analysis of the deposited data

Results flagged for a closer look

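Serping1 had a normal pool that lay far from the others for the spread of its group. Normal replicate 1 had a signal of 2943 for probe set 1416625_at, against 3449 to 3541 in the other normal pools, so that its gap to the nearest pool was 0.845 of the range of the group. Without that pool the Serping1 log2 difference was 0.23 in place of 0.29, with an adjusted p of 0.592 (0.287 to 0.774 over its alternatives). It was the 1 such case among 26 groups of values examined, and chance gives about 1 in 20.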

How the results depend on the processing

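The differences of C1q, C2, C3ar1 and Serping1 kept their direction under every alternative fit, but C2 and 2 C1qb probe sets turned within spike-in set 2, which holds 1 pool a group. The count of called complement probe sets, 0, became 1 with robust hyperparameters, 1 with array weights and 1 with the spike-in set as a term, each time C3ar1 1419483_at, and was 0 to 0 with 1 pool left out. The count over all probe sets, 67, was 127 with array weights, 114 with the spike-in set as a term, 31 without normal replicate 4 and dystrophic replicate 3 together, and 25 to 60 with 1 pool left out, at 34, 29 and 25 without dystrophic replicates 2, 3 and 4. With the replicate number as a block it was 105, and no complement probe set was called. The median of the members, 0.47, was 0.22 with the lowest 60% left out, which kept 10 probe sets, and 0.23 to 0.59 with 1 pool left out. The 1 called gene of the wider list, Lrp1, was lost, giving 0, with the values as deposited, with no intensity trend and without both pools, and the count was 0 to 1 with 1 pool left out. In these fits Clu turned direction: 1437458_x_at was 0.0167 as deposited, 1437689_x_at was -0.00553 with 75th percentile scaling, 1418626_a_at, 1437689_x_at and 1454849_x_at were -0.14, -0.27 and -0.0493 with array weights, and -0.42, -0.53 and -0.27 without both pools. With 1 pool left out the ranges were -0.39 to 0.52 for 1418626_a_at, -0.41 to 0.20 for 1437458_x_at, -0.46 to 0.30 for 1437689_x_at and -0.28 to 0.45 for 1454849_x_at. Leaving out dystrophic replicate 3 for the counts of 5 and 4 in the report was chosen after seeing the data. The causes were not tested, and 4 pools a group limit what can be called.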

Other observations

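Masp1, a protease of the lectin pathway, had 5 probe sets that went different ways. Of the 2 that limma tested, 1 had a log2 difference of 0.02 (adjusted p = 0.983). In the other it was -0.49 (adjusted p = 0.256), with every dystrophic pool below every normal pool. The 3 that were too dim to be tested lay at 0.86, 0.89 and 0.22, and at 0.55, 0.46 and 0.12 without dystrophic replicate 3. The first and second of these were highest in that pool, at 319 and 153. The sources used here do not say which transcript forms they detect, so no direction is given for Masp1.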
